A study of Mus musculus with 8 samples.

Results

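The genes described here serve calcium release and calcium storage in muscle fibres and the supply of energy to them. They were a list of 44 genes chosen by function: parts of the excitation-contraction machinery, calcium pumps and buffers, calcineurin, creatine kinases, oxygen and CO2 handling proteins, and enzymes of glycogen use and glycolysis. A member was measured where a probe set of the Clariom S Mouse microarray carried its symbol alone, which held for 43 of the 44 members among 22206 probe sets tested; no probe set carried the symbol Eno1. Of the measured members, 31 were muscle-type genes, most of them expressed mainly in striated muscle, though Car3 and Slc2a4 are also genes of fat. The other 12 were widely expressed genes, most of them enzymes or pumps that many tissues use.

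RNA came from dorsal skin of male C3H mice that were 7 weeks old, were acclimatised for 7 days, were depilated and then received a daily topical application for 20 days. There were 4 groups of 2 arrays: a control group given Milli-Q water and groups given minoxidil, tieghemelin or maslinic acid, each compound at 1%, and all mice were depilated, the controls included. The description of minoxidil array 2 says 1% while its source name says 2%, and the titles of both control arrays name them as controls of tieghemelin and maslinic acid. The groups held 8 mice each, but the labels do not tie arrays to mice or say whether RNA was pooled, so p-values measure the spread between arrays, which may be technical. Minoxidil is a hair growth drug, maslinic acid is a plant triterpenoid and tieghemelin is a compound examined for hair growth beside it. A 2-sided permutation test of 2 arrays against 2 cannot go below p = 0.33, so tests came from a linear model in limma across all probe sets and all 8 arrays.

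In a muscle fibre, an action potential moves the voltage sensor of the surface membrane, which opens the ryanodine receptor of the calcium store. Calcium is then returned by the SERCA pump and held in the store by calsequestrin. Contraction and pumping use ATP, which creatine kinase buffers and which glycogen breakdown and glycolysis replace; many of these enzymes exist as a muscle isoform and a widely expressed isoform. Below the skin of the mouse back lies a thin sheet of skeletal muscle, the panniculus carnosus, so full-thickness skin can hold muscle RNA.

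Upstream sequences of 5 muscle-type genes are shown because their transcripts are among those described below and because each holds the E-box CAGCTG, a sequence that myogenic factors such as MyoD are known to bind. Each is the RefSeq promoter table's 250 bases before the transcript start (build GRCm38.p6), 5′ to 3′ on the gene's strand, with CAGCTG in capitals. Atp2a1 lies at chr7:126463074-126463323 on the minus strand, Mb at chr15:77022788-77023037 on the minus strand, Pygm at chr19:6384158-6384407 on the plus strand, Pgam2 at chr11:5803797-5804046 on the minus strand and Ckm at chr7:19410844-19411093 on the plus strand.
Atp2a1: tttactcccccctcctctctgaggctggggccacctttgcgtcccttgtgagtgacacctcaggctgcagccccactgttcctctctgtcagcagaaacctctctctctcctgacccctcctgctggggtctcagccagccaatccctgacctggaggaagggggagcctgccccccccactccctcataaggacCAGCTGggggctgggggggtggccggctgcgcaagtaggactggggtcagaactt
Mb: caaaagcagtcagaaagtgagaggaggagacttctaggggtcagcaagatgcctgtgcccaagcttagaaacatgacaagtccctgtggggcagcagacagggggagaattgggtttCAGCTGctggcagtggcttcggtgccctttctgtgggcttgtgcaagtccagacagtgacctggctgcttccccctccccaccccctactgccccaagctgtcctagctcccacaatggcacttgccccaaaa
Pygm: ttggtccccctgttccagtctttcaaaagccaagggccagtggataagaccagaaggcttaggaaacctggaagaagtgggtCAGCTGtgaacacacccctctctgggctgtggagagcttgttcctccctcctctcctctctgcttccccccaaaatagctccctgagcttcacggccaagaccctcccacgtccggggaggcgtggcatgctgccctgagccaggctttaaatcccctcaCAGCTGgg
Pgam2: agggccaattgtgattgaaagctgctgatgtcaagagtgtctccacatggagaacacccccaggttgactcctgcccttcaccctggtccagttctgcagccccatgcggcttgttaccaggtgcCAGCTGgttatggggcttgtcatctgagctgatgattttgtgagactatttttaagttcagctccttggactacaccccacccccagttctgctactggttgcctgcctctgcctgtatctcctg
Ckm: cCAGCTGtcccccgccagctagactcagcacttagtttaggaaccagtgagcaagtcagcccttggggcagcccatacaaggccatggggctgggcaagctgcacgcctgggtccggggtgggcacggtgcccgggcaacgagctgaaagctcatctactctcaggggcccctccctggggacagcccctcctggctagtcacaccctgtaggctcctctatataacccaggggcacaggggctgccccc

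The table held promoters for 31 of the 44 members, 45 promoters in all since 9 members had several start sites. CAGCTG reads the same on both strands and was present in 14 of 28 promoters of muscle-type members (50%), in 2 of 17 of widely expressed members (11.8%) and in 4271 of all 32851 promoters of the table (13%). By gene it was present for 12 of 20 muscle-type members (60%): Atp2a1, Cacna1s, Casq1, Ckm, Ckmt2, Cox8b, Fbp2, Jph2, Mb, Pgam2, Phka1 and Pygm. Among 11 widely expressed members it was present for Gys1 and Pkm (18.2%), and among all 27025 genes of the table for 14.7%. The MCAT sequence CATTCC, searched on both strands, was present in 2 of the 28 muscle-type promoters (7.14%), 4 of the 17 widely expressed ones (23.5%) and 12.6% of all promoters. The MEF2 site was present in 0 muscle-type promoters and in 1 widely expressed promoter, that of Ckb, against 0.508% of all, and the CArG box of SRF in 0 promoters of either class against 1.47% of all. A match describes the letters in this window only.

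Control array 1 differed from the rest. Its values correlated with those of each other array at Pearson r of 0.518 to 0.538 over all probe sets, while the other 7 arrays correlated among themselves at 0.901 to 0.966. Counts of members at the thresholds the study used (a 1.7-fold difference or more and an unadjusted p no higher than 0.05), and differences from control that reached them, are therefore given with all arrays and without control array 1, where control array 2 alone stands for the group and is assumed to vary like the arrays of the other groups. Values are on a log2 scale, on which a difference of 1 is a doubling, and a probe set was taken as above background where it exceeded the median of 23 antigenomic probe sets of its array. Those medians were 7.75 and 7.61 on the control arrays, 7.51 and 7.33 under minoxidil, 7.02 and 6.97 under tieghemelin, and 6.96 and 7.08 under maslinic acid. The background was thus lower than in controls by a log2 difference of -0.26, -0.69 and -0.66, the same direction as the members called lower, and its part in the values of members near background was not tested. Of the muscle-type members, 20 were above background on all 8 arrays, 10 on some and 1, Ampd1, on none; of the widely expressed members, 7 were above it on all 8 arrays, 4 on some and 1, Ldhb, on none. Keratinocyte markers of skin were above background, 6 of 6, on each array but control array 1, where Krt14 and Krt15 were not.

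Skeletal muscle markers outside the member list, such as the fast myosin Myh4 and the fast troponin Tnnt3, moved with many of the members. The log2 of the summed level of 14 such markers was 18.08 and 18.98 on the control arrays, 16.03 and 14.81 under minoxidil, 12.85 and 12.73 under tieghemelin, and 16.61 and 13.09 under maslinic acid. Of the 14 markers, 12 to 14 were above background on each array; Neb was not on either tieghemelin array, nor Tnnt3 on tieghemelin array 2. Their median difference from control was -2.19 under minoxidil, -3.68 under tieghemelin and -2.57 under maslinic acid, and -3.15, -4.81 and -3.32 without control array 1. The summed level of 6 heart muscle markers lay between 10.50 and 10.93 on all 8 arrays, but only 2 to 5 of them were above background on any array. Other cell types of skin differed as well, and not all in 1 direction. Of 4 endothelium markers, 3 were higher under each treatment, with median differences of 0.58, 0.57 and 0.50, and 0.41, 0.54 and 0.62 without control array 1. Between 0 and 4 of them were above background on an array. Of 3 macrophage markers measured, 2 were higher under each treatment with all arrays, and 0, 1 and 1 without control array 1. The 2 nerve and Schwann markers had medians of 0.01, -0.26 and 0.15. The 6 keratinocyte markers had log2 sums of 11.69 and 14.37 in controls and 11.51 to 13.22 on treated arrays. Their median differences were -0.28, -1.22 and -0.77. Without control array 1 these were -1.28, -1.65 and -1.48, and 6 of 6 were lower under each treatment. The 5 fibroblast markers were all above background except Col1a1, Col3a1 and Dcn on control array 1. Their sums were 11.17 and 12.67 in controls and 11.15 to 11.94 on treated arrays. Without control array 1, 5 of 5 were lower under each treatment, with medians of -0.92, -0.76 and -0.84. The 6 smooth muscle markers had sums of 11.65 and 10.90 in controls and 9.73 to 10.34 on treated arrays. On an array, 2 to 5 of them were above background. With all arrays 5, 6 and 5 were lower, Des and Tagln at the thresholds, where 4.29%, 4.73% and 4.45% of all probe sets were lower. Tagln was above background on control array 1 alone, at 8.48, so its calls rested on that array. Des values may also come from skeletal muscle fibres, and that part was not tested. The part of these cell types and of muscle content in the differences below was not tested, and in such bulk tissue fewer muscle fibres and less RNA per fibre cannot be told apart.

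**Figure D1:**
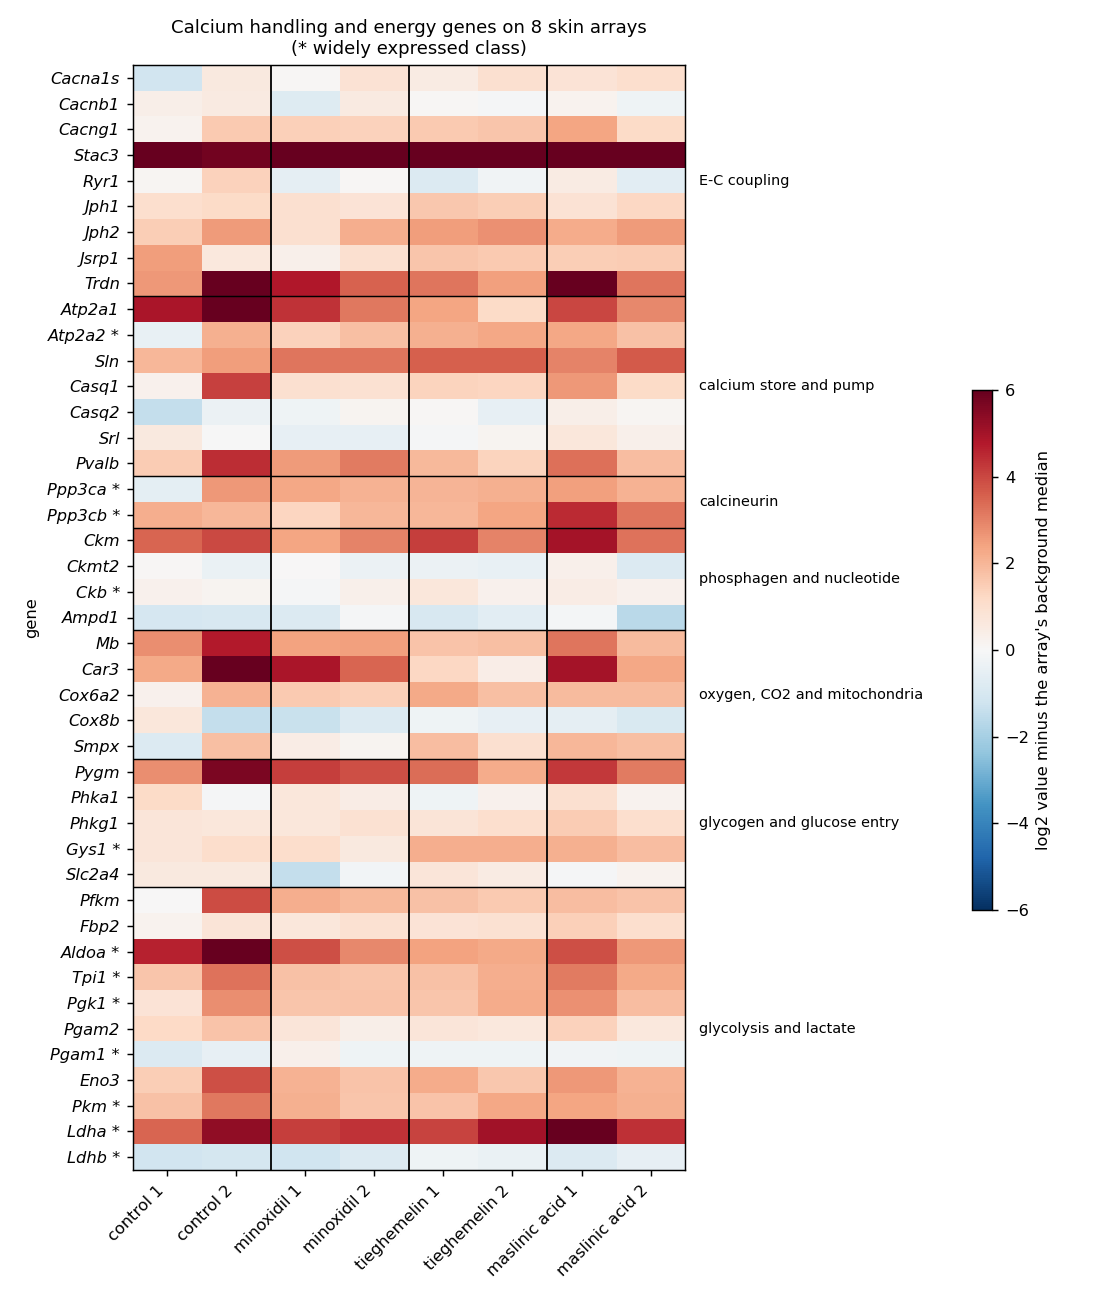
Log2 value of each of the 43 measured members (rows, by role; an asterisk marks the widely expressed class) minus the background median of the same array, on 8 arrays (columns). Red is above and blue below background; colours are read along a row. Atp2a1, Car3 and Aldoa are darkest on control array 2 and palest on the tieghemelin arrays.

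The voltage sensor and its partners in the surface membrane showed no common direction. Cacna1s, the pore and voltage sensor of the muscle calcium channel, was read at 6.61 and 8.19 on the control arrays, 7.56 and 8.20 under minoxidil, 7.49 and 7.94 under tieghemelin, and 7.79 and 8.08 under maslinic acid. Its treated arrays all lay between the control values except minoxidil array 2, just above them. Cacnb1, the intracellular subunit of that channel, was read at 8.08 and 8.14 in controls, 6.75 and 7.86 under minoxidil, 7.08 and 6.90 under tieghemelin, and 7.19 and 6.82 under maslinic acid. Both controls were above all 6 treated arrays, and the log2 difference from control was -1.12 under tieghemelin (95% confidence interval -2.13 to -0.11) and -1.11 under maslinic acid (-2.12 to -0.10), or -1.15 and -1.14 without control array 1. It lay close to background, above it on 1 of 2 arrays of each treatment, and the background medians moved with it by -0.69 and -0.66. Cacng1, the gamma subunit, gave 7.96 and 9.19 in controls and 8.21 to 9.32 on the treated arrays, within or close to the controls' range. Stac3, an adaptor that the channel needs for coupling, gave 14.49 and 13.42 in controls and 13.53 to 13.86 on the 6 treated arrays, which all lay between the control values.

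Ryr1, the calcium release channel of the store, was read at 7.88 and 8.98 on the control arrays, 6.97 and 7.39 under minoxidil, 6.20 and 6.74 under tieghemelin, and 7.44 and 6.46 under maslinic acid. Both controls were above all treated arrays. The difference was -1.25 under minoxidil and -1.48 under maslinic acid, and Ryr1 was not above background on either tieghemelin array, where it was at least 2.71-fold lower than in controls. These became -1.80, -2.03 and at least 3.96-fold lower without control array 1. Ryr1 was above background on 1 minoxidil and 1 maslinic acid array, so it too lay where the background medians moved in the same direction.

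Trdn, triadin, which links the release channel to calsequestrin, was read at 10.35 and 15.38 on the control arrays, 12.32 and 10.88 under minoxidil, 10.23 and 9.44 under tieghemelin, and 13.26 and 10.31 under maslinic acid. Control array 2 was above every other array, while control array 1 was below both minoxidil arrays. Its difference from control was -3.03 under tieghemelin (-6.57 to 0.52), short of the thresholds, and -5.54 without control array 1. The junctophilins, which hold the surface membrane close to the store, moved less. Jph1 was read at 8.77 and 8.74 in controls and 7.82 to 8.63 on treated arrays, so both controls were narrowly on top; Jph2 gave 9.25 and 10.16 in controls and 8.48 to 9.73 on treated arrays. Jsrp1, a protein of the same junction, gave 10.27 on control array 1 and 8.24 on control array 2, with treated arrays at 7.81 to 8.70.

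Among the pumps and stores, the fast-muscle calcium pump showed the clearest order of groups. Atp2a1, which returns calcium to the store in fast fibres, was read at 12.63 and 14.02 on the control arrays, 11.86 and 10.48 under minoxidil, 9.39 and 8.14 under tieghemelin, and 10.99 and 9.98 under maslinic acid. Both controls were above all treated arrays and both tieghemelin arrays were below the other treated arrays, while minoxidil and maslinic acid overlapped. Differences from control were -2.16 under minoxidil (-3.79 to -0.52), -4.56 under tieghemelin (-6.19 to -2.93; a 23.6-fold lower level) and -2.84 under maslinic acid (-4.47 to -1.21). They were -2.85, -5.25 and -3.54 without control array 1. Atp2a2, the pump of slow fibres, heart and non-muscle cells, gave 7.32 and 9.74 in controls, and its 6 treated arrays lay between them, at 8.84 to 9.29. Sln, sarcolipin, an inhibitor of the pump, gave 9.73 and 10.13 in controls, 10.71 and 10.54 under minoxidil, 10.60 and 10.54 under tieghemelin, and 9.96 and 10.77 under maslinic acid. It was higher than both controls on 5 of 6 treated arrays, with differences of 0.43 to 0.69 that did not reach the thresholds.

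Casq1, the calsequestrin of skeletal muscle, was read at 7.99 and 11.70 on the control arrays, 8.46 and 8.24 under minoxidil, 8.36 and 8.26 under tieghemelin, and 9.57 and 8.22 under maslinic acid. Every treated array lay above control array 1 and below control array 2, so its direction was set by which control was used: -1.53 for tieghemelin with both, -3.39 against control array 2 and 0.32 against control array 1. Casq2, the cardiac and slow-fibre form, was above background on 4 of 8 arrays, at 6.33 to 7.49. Pvalb, parvalbumin, a soluble calcium buffer of fast fibres, was read at 9.27 and 12.06 in controls, 10.06 and 10.47 under minoxidil, 8.98 and 8.31 under tieghemelin, and 10.29 and 8.91 under maslinic acid. Both tieghemelin arrays were below both controls, with a difference of -2.02 (-4.01 to -0.04), or -3.42 without control array 1. Srl, sarcalumenin, another store protein, gave 8.36 and 7.57 in controls and 6.83 to 7.65 on treated arrays. Its differences were -1.03 under minoxidil and -0.92 under tieghemelin. Neither minoxidil array was above background, so only a bound of at least 1.46-fold lower holds there. Both calls rested on control array 1: control array 2 was not above background, so without array 1 no fold is given, and neither call was made. Each call was also lost on leaving out any single treated array.

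Calcineurin, a calcium-dependent phosphatase found in many tissues, is represented by its catalytic subunits. Ppp3ca gave 7.15 and 10.21 in controls and 9.06 to 9.82 on treated arrays, all between the control values. Ppp3cb was read at 9.92 and 9.61 in controls, 8.80 and 9.34 under minoxidil, 9.02 and 9.34 under tieghemelin, and 11.42 and 10.31 under maslinic acid. Both maslinic acid arrays were above the other 6 arrays, and Ppp3cb was the member at the thresholds in the upward direction against control, by 1.10 (0.03 to 2.16), and by 1.25 without control array 1.

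**Figure D2:**
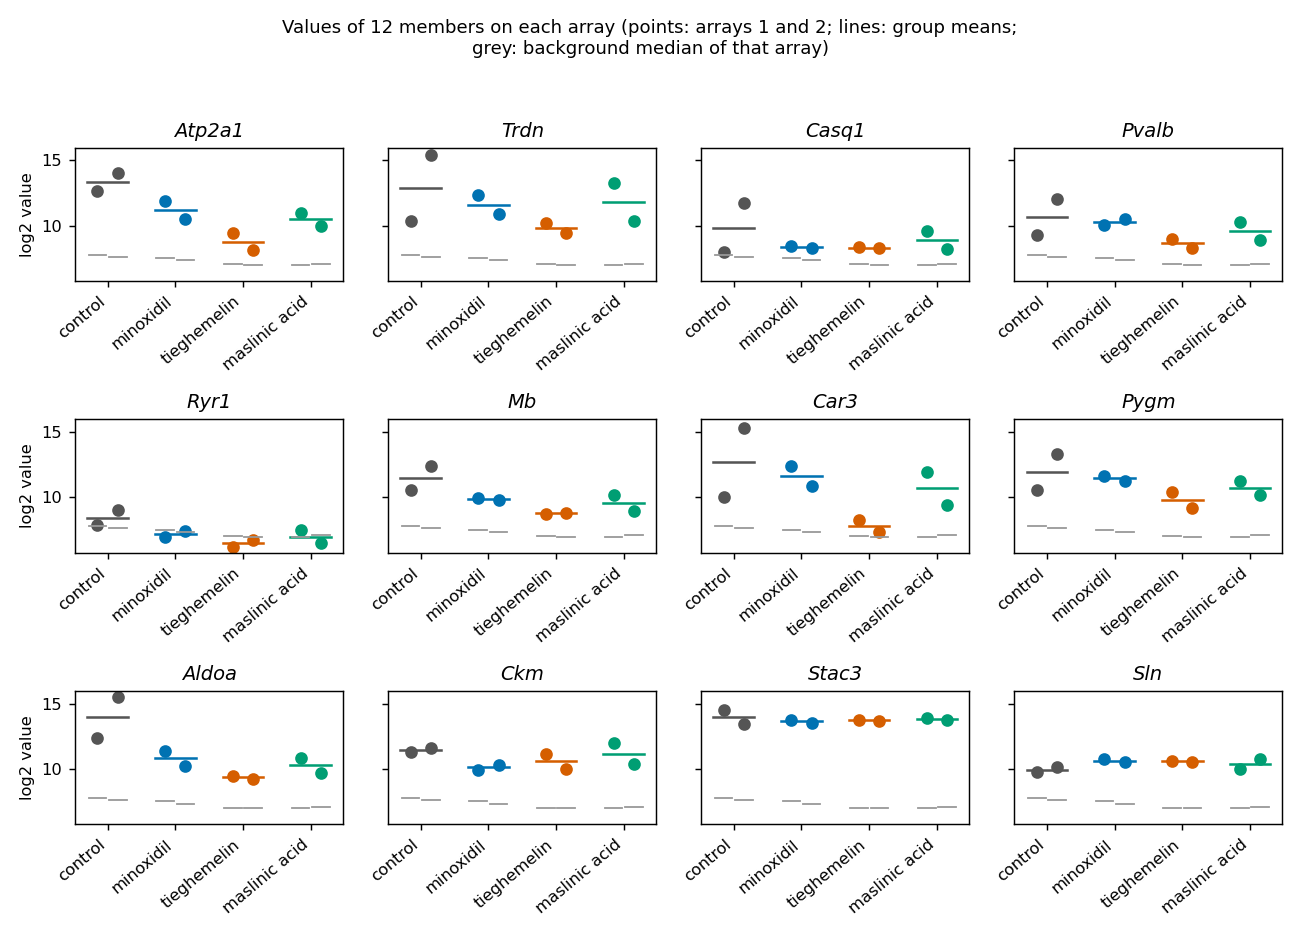
Log2 values of 12 members on each array, by group (points are arrays 1 and 2 of a group from left to right, coloured lines the group means, short grey lines each array's background median). Atp2a1, Mb and Aldoa have both controls on top and both tieghemelin arrays lowest, whereas the treated arrays of Stac3 lie between its controls, and Trdn, Casq1 and Car3 show control array 2 far above control array 1.

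The phosphate-transfer genes differed less than the pump. Ckm, the muscle creatine kinase, was read at 11.26 and 11.56 on the control arrays, 9.89 and 10.31 under minoxidil, 11.16 and 9.96 under tieghemelin, and 11.97 and 10.36 under maslinic acid. Only the minoxidil and tieghemelin arrays lay wholly below both controls, and no difference reached the thresholds: -1.30 under minoxidil (-2.71 to 0.10), -0.85 under tieghemelin (-2.25 to 0.56) and -0.24 under maslinic acid (-1.65 to 1.17). The minoxidil difference was -1.45 and reached them without control array 1. Ckb, the creatine kinase of brain and many other tissues, gave 8.01 and 7.78 in controls and 7.25 to 7.69 on treated arrays; both controls were on top, and differences were -0.36 to -0.51. Ckmt2, the mitochondrial form of striated muscle, was above background on 3 of 8 arrays, at 6.26 to 7.84, and Ampd1, the muscle AMP deaminase, on none.

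Oxygen and CO2 handling held the largest tieghemelin difference of any muscle-type member. Mb, myoglobin, the oxygen store of oxidative fibres, was read at 10.55 and 12.38 on the control arrays, 9.93 and 9.77 under minoxidil, 8.71 and 8.79 under tieghemelin, and 10.18 and 8.97 under maslinic acid. Both controls were above all treated arrays and both tieghemelin arrays were lowest. Differences were -1.61 under minoxidil (-3.08 to -0.14), -2.71 under tieghemelin (-4.18 to -1.24) and -1.89 under maslinic acid (-3.36 to -0.41), and -2.53, -3.62 and -2.80 without control array 1. Car3, a carbonic anhydrase abundant in muscle and in fat, was read at 10.04 and 15.29 in controls, 12.41 and 10.84 under minoxidil, 8.27 and 7.36 under tieghemelin, and 11.96 and 9.39 under maslinic acid. The tieghemelin arrays were below every other array, while control array 1 was below both minoxidil arrays. Its tieghemelin difference was -4.85 (-8.43 to -1.26) with both controls and -7.47 against control array 2 alone. The log2 summed level of 7 adipocyte markers, given because fat also expresses Car3, was 12.34 and 14.42 in controls, 11.54 and 12.03 under minoxidil, 11.99 and 12.04 under tieghemelin, and 15.23 and 12.07 under maslinic acid; its part in the Car3 values was not tested.

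Muscle subunits of cytochrome oxidase gave no such order. Cox6a2 was read at 7.99 and 9.70 in controls, and its treated arrays lay between, at 8.76 to 9.29. Cox8b was above background on control array 1 alone, at 8.43, with the other 7 arrays at 6.15 to 6.78. Smpx, a small protein of striated muscle, gave 6.91 and 9.41 in controls and 7.51 to 8.94 on treated arrays, again between the controls.

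In glycogen use, Pygm, the muscle glycogen phosphorylase, was read at 10.54 and 13.28 on the control arrays, 11.65 and 11.21 under minoxidil, 10.39 and 9.18 under tieghemelin, and 11.20 and 10.19 under maslinic acid. Both tieghemelin arrays were below both controls, narrowly so for array 1, and the difference was -2.12 (-4.11 to -0.14), or -3.50 without control array 1. Phka1 and Phkg1, the muscle regulatory and catalytic subunits of the kinase that activates phosphorylase, gave 8.90 and 7.52, and 8.47 and 8.31, in controls. On tieghemelin arrays they were at 6.78 and 7.23, and at 7.81 and 7.98, below all other arrays in both cases, with differences of -1.20 (-2.40 to 0.00) and -0.49 (-1.30 to 0.31). Gys1, the glycogen synthase of muscle and other tissues, gave 8.49 and 8.66 in controls, 8.58 and 7.91 under minoxidil, 9.19 and 9.16 under tieghemelin, and 9.08 and 8.91 under maslinic acid; the tieghemelin and maslinic acid arrays were above both controls, by 0.60 and 0.42 on average, short of the thresholds. Slc2a4, the insulin-responsive glucose transporter of muscle and fat, was read at 8.33 and 8.20 in controls, 6.07 and 7.16 under minoxidil, 7.74 and 7.46 under tieghemelin, and 6.88 and 7.29 under maslinic acid. Both controls were on top. It was not above background on either minoxidil array, where it was at least 1.79-fold lower, and it differed by -1.18 under maslinic acid (-2.20 to -0.16) and -0.66 under tieghemelin (-1.68 to 0.36). With control array 2 alone these were at least 1.71-fold lower, -1.11 and -0.60.

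Along glycolysis, 1 widely expressed member differed more than any muscle isoform of the pathway. Aldoa, aldolase A, which is found in most tissues and is the aldolase of muscle, was read at 12.35 and 15.51 on the control arrays, 11.36 and 10.23 under minoxidil, 9.45 and 9.25 under tieghemelin, and 10.85 and 9.66 under maslinic acid. Both controls were above all treated arrays and both tieghemelin arrays were lowest. Differences were -3.14 under minoxidil (-5.31 to -0.96), -4.58 under tieghemelin (-6.76 to -2.40) and -3.67 under maslinic acid (-5.85 to -1.50), and -4.72, -6.16 and -5.25 without control array 1. Pgam2, the muscle phosphoglycerate mutase, gave 8.93 and 9.33 in controls, 8.23 and 7.67 under minoxidil, 7.75 and 7.59 under tieghemelin, and 8.36 and 7.71 under maslinic acid. Both controls were on top and the 3 treatments overlapped; differences were -1.18, -1.46 and -1.10, and -1.38, -1.66 and -1.30 without control array 1. Pgam1, the widely expressed mutase, stayed near background, at 6.72 to 7.81.

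Pfkm, the muscle phosphofructokinase, was read at 7.78 and 11.52 in controls, and its treated arrays lay between, at 8.55 to 9.70; its tieghemelin difference was -0.98 with both controls, -2.85 against control array 2 and 0.89 against control array 1. Eno3, the muscle enolase, gave 9.23 and 11.50 in controls, 9.59 and 9.06 under minoxidil, 9.25 and 8.60 under tieghemelin, and 9.55 and 9.16 under maslinic acid, with a tieghemelin difference of -1.44 (-3.04 to 0.15). Fbp2, the muscle fructose bisphosphatase, differed little, at 7.97 and 8.39 in controls and 7.83 to 8.39 on treated arrays. Of the widely expressed enzymes, Tpi1 gave 9.41 and 10.86 in controls and 8.79 to 10.07 on treated arrays, Pgk1 8.57 and 10.41 against 8.69 to 9.69, Pkm 9.52 and 10.80 against 8.75 to 9.65, and Ldha 11.24 and 12.92 against 11.09 to 12.93. In each of these, control array 2 was above control array 1 and no difference from control reached the thresholds with all arrays. Without control array 1, Tpi1, Pgk1 and Pkm were lower at the thresholds under each treatment, and Ldha under tieghemelin.

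Read as counts, members at these thresholds were mostly lower with each treatment. With minoxidil, 7 of 43 members were lower at these thresholds (Ryr1, Atp2a1, Srl, Mb, Slc2a4, Aldoa and Pgam2) and 0 higher, where 4.29% of all probe sets were lower and 6.98% higher. With tieghemelin, 10 were lower (Cacnb1, Ryr1, Atp2a1, Srl, Pvalb, Mb, Car3, Pygm, Aldoa and Pgam2) and 0 higher, against 4.73% and 7.02%. With maslinic acid, 7 were lower (Cacnb1, Ryr1, Atp2a1, Mb, Slc2a4, Aldoa and Pgam2) and Ppp3cb higher, against 4.45% and 6.39%. By limma with Benjamini-Hochberg adjustment over all probe sets, 0 members and 0% of probe sets passed an adjusted p of 0.05 in any of the 3 comparisons; the smallest member values were 0.440, 0.364 and 0.448, and 7, 10 and 8 members had an unadjusted p under 0.05. The 3 comparisons share the control arrays.

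These counts rested in part on single arrays. Without control array 1, 19 members were lower at the thresholds under minoxidil (against 6.38% of all probe sets), 19 under tieghemelin (7.12%) and 18 under maslinic acid (6.57%), and 0, 0 and 1 were higher (6.53%, 6.63% and 6.21%). Without control array 2, so against control array 1 alone, 9 were lower and 6 higher under minoxidil, 13 and 6 under tieghemelin, and 9 and 7 under maslinic acid, where 47.3%, 47.5% and 47.3% of all probe sets reached the thresholds in either direction. Leaving out each of the 8 arrays in turn, members that stayed at the thresholds in all 8 fits were Slc2a4 under minoxidil, Ryr1, Atp2a1, Mb, Aldoa and Pgam2 under tieghemelin, and Atp2a1 and Aldoa under maslinic acid. Atp2a1, Aldoa and Pgam2 under minoxidil were lost only without minoxidil array 2, and Car3 under tieghemelin only without tieghemelin array 2. Without minoxidil array 2, 2 members were left under minoxidil, without tieghemelin array 2, 5 under tieghemelin, and without maslinic acid array 2, 3 under maslinic acid; without either tieghemelin array, 4 were left under minoxidil, as without minoxidil array 1, and without either maslinic acid array, 6 under tieghemelin.

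With control array 2 as the only control, 10 members were lower under tieghemelin at an adjusted p under 0.05 in limma, where 0.288% of all probe sets were, and 0 were higher, against 0.0675%. They were 9 muscle-type genes and Aldoa. Differences and adjusted p-values were -6.16 and 0.0048 for Aldoa, -5.25 and 0.0179 for Atp2a1, -7.47 and 0.0179 for Car3, -2.85 and 0.0193 for Pfkm, and -3.62 and 0.0198 for Mb. They were -3.39 and 0.0274 for Casq1, -3.50 and 0.0374 for Pygm, -3.42 and 0.0375 for Pvalb, -2.58 and 0.0397 for Eno3, and -5.54 and 0.0456 for Trdn. In each of these 10, both tieghemelin arrays were below control array 2, and in Casq1, Pfkm and Eno3 at least 1 of them was above control array 1. Against control array 1 alone, calls at that level went both ways, for members and for all probe sets: 9 members were lower and 3 higher under tieghemelin (16.5% and 21.4% of all probe sets), 5 and 4 under minoxidil (16% and 21.7%), and 5 and 5 under maslinic acid (16% and 21.3%). Over all alternatives run, the limma adjusted p of the 10 genes was at most 0.882 for Pfkm and 0.861 for the others, and the lowest, both from the fit against control array 1 alone, was 0.00148 for Atp2a1 and 0.00234 for Aldoa. With maslinic acid, Aldoa alone passed without control array 1 (-5.25, adjusted p = 0.0441, range 0.0143 to 0.868; 0.0045% of all probe sets), and under minoxidil 0 members did, although 19 had an unadjusted p under 0.05.

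Muscle-type and widely expressed members were then set side by side. The median difference from control was -0.48 for muscle-type and -0.36 for widely expressed members under minoxidil, -0.85 and -0.47 under tieghemelin, and -0.73 and -0.19 under maslinic acid, while all probe sets had medians of 0.058, 0.045 and 0.047. With all arrays, muscle-type members lower at the thresholds numbered 6 of 31, 9 of 31 and 6 of 31. Widely expressed members lower at them numbered 1 of 12 in each comparison, which was Aldoa, also the aldolase of muscle. Aldoa was not alone in its class without control array 1, where members such as Tpi1, Pgk1 and Pkm were also lower at the thresholds under each treatment. Further muscle-type members reached them there as well. Without control array 1, the class medians were -0.84 and -0.66, -0.62 and -0.82, and -0.67 and -0.70, so the order of the classes under tieghemelin and maslinic acid turned with that array. The class medians of arrays of the same group differed with an SD of 0.295 for muscle-type and 0.395 for widely expressed members, and the gap between the classes exceeded both of these only for maslinic acid with all arrays. The members named above for tieghemelin without control array 1 had differences of -2.58 or lower, where the lowest 5% of all probe sets lay below -1.06. They were picked from that same fit, so this position is no further evidence.

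**Figure D3:**
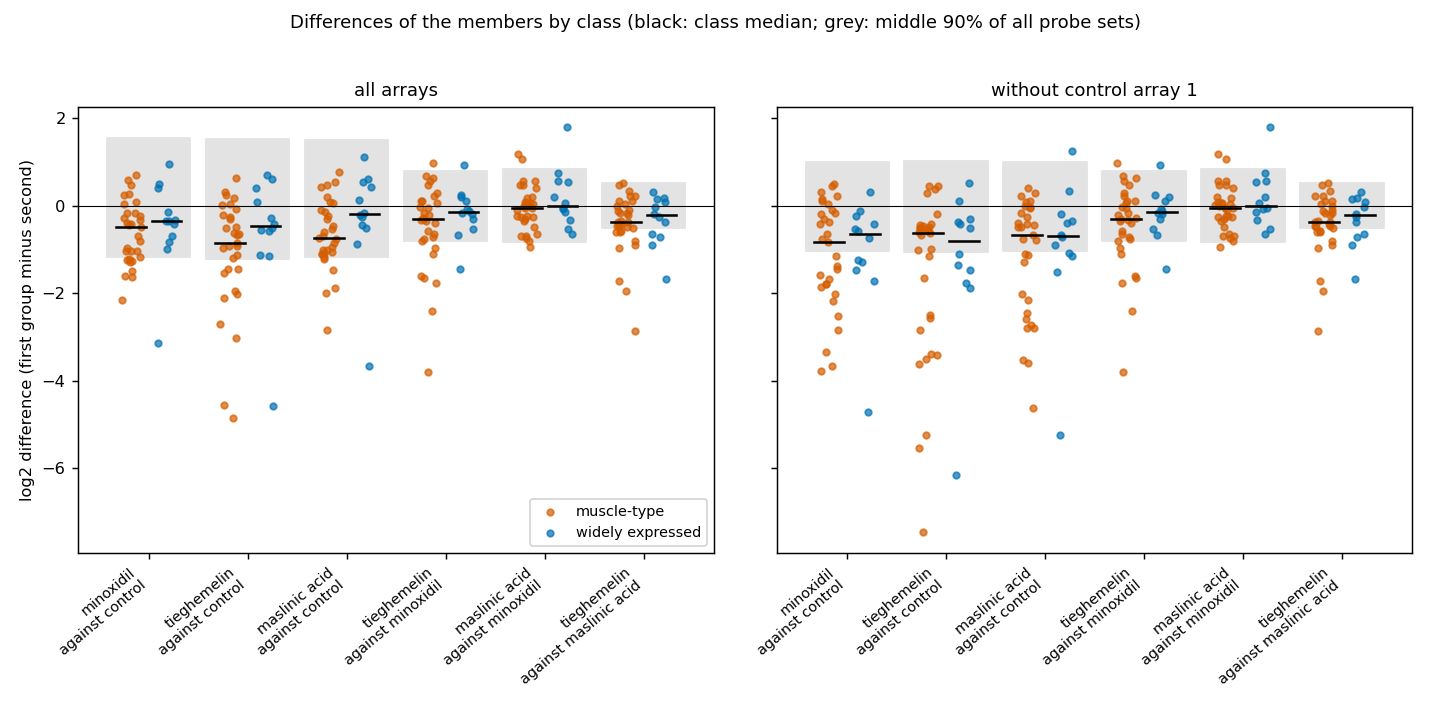
Log2 difference of each member (points) in the 6 comparisons, muscle-type in orange and widely expressed in blue, with all arrays (left) and without control array 1 (right). Black bars are class medians and grey bands span the middle of all probe sets, without the lowest and highest 5%; the lowest blue point against control is Aldoa each time, and the lowest orange points under tieghemelin are Car3 and Atp2a1 with all arrays.

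Patterns over arrays were counted for the members and for all probe sets. Both controls lay above all 6 treated arrays for 7 of 31 muscle-type members (Cacnb1, Ryr1, Jph1, Atp2a1, Mb, Slc2a4 and Pgam2) and 2 of 12 widely expressed members (Ckb and Aldoa), against 6.93% of all probe sets. Control array 2 lay above all treated arrays, wherever control array 1 lay, for 17 of 31 and 7 of 12, against 18.2%. These counts and this share include the cases with both controls on top. Both tieghemelin arrays lay below the 4 other treated arrays for 8 of 31 (Trdn, Atp2a1, Casq2, Mb, Car3, Phka1, Phkg1 and Fbp2) and 2 of 12 (Ppp3ca and Aldoa), against 5.83%. Atp2a1, Mb and Aldoa showed both patterns at once, as did 0.558% of all probe sets. Groups that did not overlap were also counted per comparison: 15 of 43 members were lower than control without overlap under minoxidil, 24 under tieghemelin and 11 under maslinic acid, against 15.6%, 18.4% and 17.9% of all probe sets.

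Arrays of 1 group differed in the same sense for many members. Maslinic acid array 1 was above array 2 for 24 of 31 muscle-type and 10 of 12 widely expressed members, against 51.1% of all probe sets, and the skeletal muscle marker sum differed the same way, 16.61 against 13.09. Tieghemelin array 1 was above array 2 for 21 of 31 and 5 of 12 (49.2% of all probe sets), and minoxidil array 1 above array 2 for 18 of 31 and 7 of 12 (49.2%). Control array 2 was above control array 1 for 21 of 31 and 9 of 12, against 52.2%. Replicates carry no order, so these counts describe only how far members moved together within a group.

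Isoform pairs compare a muscle enzyme with the widely expressed form of the same activity on the same arrays, which removes what both probe sets of an array share and shows unequal differences only. Of 17 pairs listed, 14 had both genes measured. The muscle form differed more in the downward direction than its partner in 12 of 14 pairs under minoxidil, 12 under tieghemelin and 11 under maslinic acid, with median gaps of -1.02, -1.08 and -0.84; without control array 1 it did in 9, 13 and 11 pairs, with medians of -1.17, -0.66 and -0.47. These counts include pairs with an isoform at background: both genes were above background on at least 1 array of each group in 7, 9 and 9 pairs, of which the muscle form differed more in the downward direction in 7, 7 and 6, a restriction chosen after seeing the data. This held for 5 of 6, 7 of 7 and 5 of 7 such pairs without control array 1. Neither Ampd1 nor its partner Ampd2 was above background on any array. With tieghemelin, Car3 differed from control by -4.85 and Car2, a carbonic anhydrase of many cell types, by 0.22. Without control array 1 they differed by -7.47 and -0.83, and Car2 was above background on only 4 of 8 arrays. Atp2a1 differed by -4.56 and Atp2a2 by 0.69, and without control array 1 by -5.25 and -0.52. Pygm differed by -2.12, whereas Pygb, the brain phosphorylase, was above background on 3 of 8 arrays. Pfkm differed by -0.98 and Pfkl, the liver phosphofructokinase, by 0.81, and Ckm by -0.85 and Ckb by -0.42. Pgam2 differed by -1.46, while Pgam1 was above background on no control or tieghemelin array, so no value is set beside it. The exact permutation test of a pair's gap, 2-sided, could not go below 0.333 and gave an adjusted p of 0.666 at the lowest over the 14 pairs under tieghemelin, so no pair could pass.

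**Figure D4:**
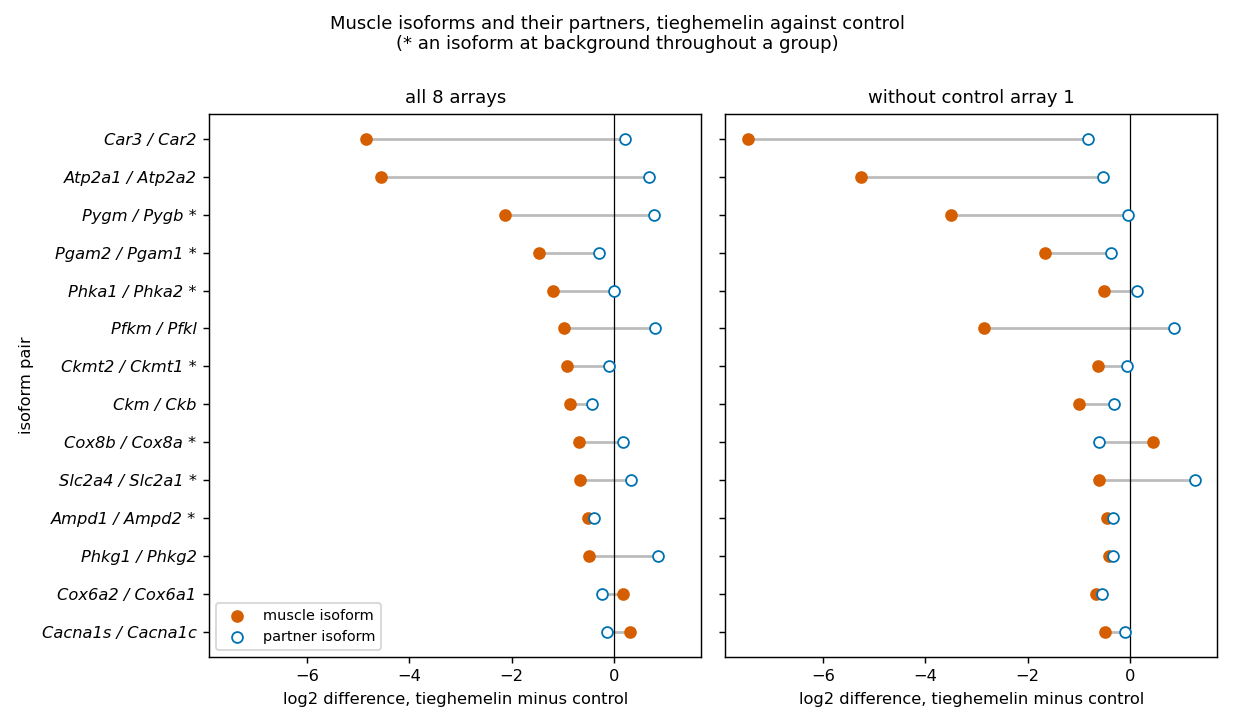
Log2 difference between tieghemelin and control for 14 isoform pairs (rows), with all 8 arrays (left) and without control array 1 (right); filled points are the muscle isoform, open points the widely expressed partner, and the line joins them. An asterisk marks 7 pairs with an isoform at background throughout a group, for Phka1 and Slc2a4 only without control array 1; their points there are no measured differences. The widest gaps are Car3 and Car2 and Atp2a1 and Atp2a2 in both panels.

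Treatments were also compared with each other, which does not use the control levels. Tieghemelin was lower than minoxidil at the thresholds in Car3, by -3.81 (-7.39 to -0.22), and Atp2a1, by -2.40 (-4.03 to -0.77), and higher in Gys1, by 0.93 (0.07 to 1.79), while 1.53% of all probe sets were lower and 1.77% higher. The Atp2a1 call was lost without minoxidil array 1 or tieghemelin array 2, the Car3 call without any 1 of the 4 arrays compared, and the Gys1 call without minoxidil array 2, either tieghemelin array or either maslinic acid array. Without control array 1, which then no longer adds to the common spread, 9 members were lower and 2 higher, against 5.47% and 4.95%: Trdn, Atp2a1, Pvalb, Mb, Car3, Pygm, Phka1, Pfkm and Aldoa, and Gys1 and Slc2a4. Of these, Slc2a4 was not above background on either minoxidil array and was at least 1.13-fold higher under tieghemelin. Muscle-type members had a median difference of -0.31 and widely expressed members of -0.14, beside -0.031 for all probe sets, and 18 of 43 members were lower without overlap, against 23.6%.

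Maslinic acid and minoxidil differed at the thresholds in Ppp3cb alone, by 1.80 (0.73 to 2.86; 1.95% of all probe sets were higher), and this call held in all 8 fits that left out an array. Without control array 1, Smpx also reached them, by 1.18 (-0.54 to 2.90 with all arrays), where 5.3% of all probe sets were higher and 5.79% lower. The other members were not shown to act alike: Atp2a1 differed by -0.69 (-2.32 to 0.94), Aldoa by -0.54 (-2.71 to 1.64), Mb by -0.27 (-1.74 to 1.20), Ckm by 1.06 (-0.34 to 2.47) and Trdn by 0.19 (-3.36 to 3.73). Tieghemelin was lower than maslinic acid in Atp2a1, by -1.72 (-3.35 to -0.09), and in Ppp3cb, by -1.68 (-2.75 to -0.62), where 0.167% of all probe sets were lower and 0.14% higher. Both calls were lost without maslinic acid array 1, and that of Atp2a1 also without tieghemelin array 2. Car3 differed by -2.86 (-6.44 to 0.73) and Trdn by -1.95 (-5.50 to 1.60), and both joined the calls without control array 1, which made 4 members lower and 0 higher, against 0.878% and 0.684%. Skeletal muscle markers had medians of -1.60 for tieghemelin against minoxidil, -0.35 for maslinic acid against minoxidil and -1.47 for tieghemelin against maslinic acid. By limma, 0 members and 0% of probe sets passed an adjusted p of 0.05 in these 3 comparisons, and 3, 1 and 2 members had an unadjusted p under 0.05.

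Other genes of the same pathways, from lists of calcium handling and energy genes outside the members, were counted in the same way. Of 29 other calcium handling genes, 23 were measured: 3 were lower and 3 higher at the thresholds under minoxidil, 5 and 2 under tieghemelin, and 5 and 2 under maslinic acid, with median differences of -0.22, -0.22 and -0.37, where 4.29%, 4.73% and 4.45% of all probe sets were lower and 6.98%, 7.02% and 6.39% higher. Without control array 1 the medians were -0.32, -0.60 and -0.45. Hrc, a histidine-rich calcium binder of the store, was read at 9.97 and 9.99 in controls, 8.47 and 8.96 under minoxidil, 8.40 and 9.22 under tieghemelin, and 8.98 and 8.78 under maslinic acid, below both controls throughout, by -1.26, -1.17 and -1.10, and by -1.27, -1.18 and -1.11 without control array 1. Tmem38b, a cation channel of calcium stores in many tissues, differed by -1.37 under tieghemelin and -1.24 under maslinic acid, but by -0.62 and -0.49 without control array 1, and Cacna2d1, an accessory calcium channel subunit, by -1.29 under tieghemelin (-0.80 without that array). Camk2b, a calcium-dependent kinase, was higher under minoxidil by 1.54 (0.95 without control array 1), Camk2d under maslinic acid by 1.97 (0.84), and Fkbp1a, which binds the ryanodine receptor, was at least 1.81-fold higher under tieghemelin (at least 1.89-fold). Pln and Stim1 were not above background on any array, so no fold is given.

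Of 38 other energy genes, 35 were measured: 2 were lower and 1 higher at the thresholds under minoxidil, 9 and 2 under tieghemelin, and 2 and 4 under maslinic acid. At the same thresholds, 4.29%, 4.73% and 4.45% of all probe sets were lower and 6.98%, 7.02% and 6.39% higher. The median differences of these energy genes were -0.02, -0.09 and 0.06. Without control array 1 the medians were -0.34, -0.33 and -0.22. Ppp1r3a, which targets a phosphatase to glycogen in muscle, was read at 11.11 and 12.79 in controls, 9.25 and 9.66 under minoxidil, 8.61 and 8.99 under tieghemelin, and 11.61 and 8.69 under maslinic acid, and it differed by -2.50 under minoxidil and -3.15 under tieghemelin, and without control array 1 by -3.34 and by a 15.95-fold lower level. Slc25a4, the ADP/ATP carrier of heart and muscle mitochondria, gave 11.39 and 14.61 in controls and 10.28 and 9.79 under tieghemelin, a difference of -2.97, or -4.58 without control array 1. Ugp2, which makes the UDP-glucose used for glycogen, differed by -2.71 under tieghemelin (-3.40 without that array), and Ak1, the adenylate kinase of muscle, was at least 4.90-fold lower under tieghemelin and 4.01-fold lower under maslinic acid, or at least 8.58-fold and 7.02-fold without it. Upward, Pfkl differed by 1.19 under minoxidil and Hk1, a widely expressed hexokinase, by 1.26 under maslinic acid, and by 1.23 and 1.27 without control array 1.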

How the data were processed

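Per the labels, total RNA of skin (9.4 µg) was hybridised to Clariom S Mouse arrays. The authors deposited log2 values, 1 per probe set and array, normalised in Transcriptome Analysis Console 4.0.1 per the series' design text, with RMA and Affymetrix Expression Console named in the submitters' processing notes; the log2 scale was taken from their range, and a genome build was not given in the sources used here. Values were used as deposited, without a filter, after leaving out 6640 control probe sets. Symbols came from the platform annotation (19572 probe sets with 1 symbol, 2634 with none). Comparisons used limma 3.58.1 (R 4.3.3) on all 8 arrays with 4 residual degrees of freedom, eBayes and Benjamini-Hochberg adjustment over 22206 probe sets, and the code was tested on simulated data.

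The members, classes, lists and comparisons were chosen with earlier results of these data known. All members are accounted for; of other lists, up to 4 genes per comparison are named, those at the thresholds without overlap that differed most. A group with no array above its background median gives only a bound, for which its arrays were raised to that median where they were below it. Alternatives were a replicate block, quantile normalization, a shift to a common median, brighter probe sets only, trend and robust eBayes, the 2 groups alone, no control arrays, strict classes, and each array left out in turn. Deviations of same-numbered arrays from their group means correlated at r from -0.17 (tieghemelin with maslinic acid) to 0.0902. The labels name no pairs, so numbers were not taken as pairs.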

Additional observations from a re-analysis of the deposited data

How the results depend on the processing

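Members at the study's thresholds under alternatives were counted for each comparison. Against control, brighter probe sets alone gave 4 members under minoxidil, 6 under tieghemelin and 4 under maslinic acid, where fewer probe sets were tested; the 2 groups alone gave 4 under minoxidil and 3 under maslinic acid, and quantile normalization 16 under tieghemelin and a muscle-type median of -0.87 under minoxidil. Tieghemelin against minoxidil had 5 members under quantile normalization, 12 with the 2 groups alone and 11 without both control arrays; maslinic acid against minoxidil had 2 in each of the last 2 settings. Tieghemelin against maslinic acid had 1 under quantile normalization, brighter probe sets or trend and robust eBayes, and 4 with the 2 groups alone or without both control arrays. The replicate block, whose numbers the labels do not name as pairs, left 1 member for tieghemelin against minoxidil. On the 2 groups alone, it gave 7 for tieghemelin against maslinic acid, as did the crossed pairing, both of these added after seeing the data. The share of all probe sets at the thresholds is not given for these settings, nor for most fits below that leave out an array. A change in count need therefore not be particular to the members. For tieghemelin against minoxidil that share was higher without control array 1 than with all arrays. The cause of these shifts was not tested.

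Leaving out each array in turn gave these ranges, in the order minoxidil, tieghemelin and maslinic acid against control, tieghemelin and maslinic acid against minoxidil, and tieghemelin against maslinic acid. Probe sets at an adjusted p under 0.05 numbered 0 to 8363, 0 to 8427, 0 to 8282, 0 to 0, 0 to 0 and 0 to 0, the highest without control array 2. Members at the thresholds numbered 2 to 19, 5 to 19, 3 to 19, 0 to 11, 1 to 2 and 0 to 4. The muscle-type median was -0.84 to -0.25, -0.85 to -0.62, -0.98 to -0.09, -0.34 to -0.23, -0.17 to 0.17 and -0.60 to -0.10, and that of widely expressed members -0.66 to -0.18, -0.82 to -0.06, -0.70 to 0.40, -0.39 to 0.05, -0.18 to 0.17 and -0.38 to -0.02. Of 1070 alternatives to 76 member differences, 842 kept their direction and side of the thresholds, 106 lost the call, 93 gained it and 29 turned sign, all 29 on leaving out an array. Ranges for members that turned sign in minoxidil against control were -3.78 to 1.25 for Trdn, -3.35 to 0.36 for Casq1, -1.79 to 0.99 for Pvalb, -3.67 to 1.59 for Car3, -1.68 to 0.83 for Smpx, -1.85 to 0.90 for Pygm, -2.03 to 1.71 for Pfkm, -1.28 to 0.55 for Pgk1 and -2.17 to 0.09 for Eno3. Ranges for members that turned sign in tieghemelin against control were -3.39 to 0.32 for Casq1, -1.11 to 1.94 for Ppp3ca, -1.01 to 1.50 for Smpx, -2.85 to 0.89 for Pfkm, -1.47 to 0.37 for Pgk1 and -1.36 to 0.32 for Ldha. Ranges for members that turned sign in maslinic acid against control were -3.59 to 1.44 for Trdn, -2.80 to 0.91 for Casq1, -2.46 to 0.33 for Pvalb, -0.91 to 2.14 for Ppp3ca, -4.62 to 0.63 for Car3, -2.59 to 0.16 for Pygm, -2.72 to 1.02 for Pfkm, -1.16 to 0.29 for Tpi1, -1.09 to 0.74 for Pgk1 and -2.15 to 0.12 for Eno3. With 2 arrays a group and values near background for many members, small differences were not detectable, and a missed threshold does not show equal levels.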
